A study of Homo sapiens with 94 samples.

Results

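The HOX genes measured here were the 39 protein-coding genes of the HOXA, HOXB, HOXC and HOXD clusters, taken by symbol from every total RNA table and from the gene column of the nascent RNA tables. They made up 40 of the 18850 entries of each sense table and 40 of the 18370 of each antisense table, since HOXC4 was listed under 2 gene IDs. The A cluster held 11 of them, the B cluster 10, and the C and D clusters 9 each. Of the 59313 sites of the nascent tables, 17 carried a HOX name, and every one of those sites belonged to HOXD13.

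HOX genes encode homeodomain transcription factors that give cells their position along the body axis. Within a cluster the genes lie in the order in which they act, with low numbers used towards the head and high numbers towards the tail and the ends of the limbs. Genes with the same number in different clusters are paralogues. HOX proteins bind DNA together with TALE homeodomain partners of the PBX and MEIS families, Polycomb complexes keep silent HOX genes off, trithorax and MLL complexes keep active ones on, and retinoic acid and CDX factors start their expression in the embryo. HOX clusters are rich in CG dinucleotides, where DNA methylation and hydroxymethylation occur.

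The study asked how removing or oxidising DNA methylation changes transcription. The cells were HEK293, a human embryonic kidney line, and U2OS, a human osteosarcoma line, both as T-Rex Flp-in derivatives carrying a TET-CD-GFP transgene, a TET catalytic domain fused to a fluorescent protein, which doxycycline (Dox) switches on. TET enzymes oxidise 5-methylcytosine to 5-hydroxymethylcytosine. A further HEK293 line carried a mutated domain, TETMut-CD-GFP. Total RNA was measured in 63 samples, 3 to a group, and nascent RNA in 9 PRO-cap and 9 PRO-seq samples of the HEK293 TET-CD-GFP line with chicken spike-in cells.

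Dox was given at 1 µg/mL for 48 h, and 5-aza-2'-deoxycytidine (Aza), which blocks the enzymes that maintain DNA methylation, for 48 h at 880 nM in HEK293 lines and at 55 nM in U2OS. HEK293 TET-CD-GFP cells were also irradiated with UVA at 10 kJ per square metre every 8 h, 4 times, grown for 48 h with 25 µM 4-thio-2'-deoxythymidine (thio), a thymidine analogue that makes DNA sensitive to UVA, or given both. Dox, Aza and no treatment were further compared in 3 HEK293 lines called MeBP_TET_WT, MeBP_TKO_G16 and MeBP_TKO_G37 (below G16 and G37). The genotype labels of G16 and G37 name TET-CD-GFP and MeBP_TKO, whereas those of MeBP_TET_WT name TETMut-CD-GFP against its title. One Dox library of MeBP_TET_WT was labelled MeBP_TKO as well, and 1 Dox library of G37 was not, so results in the MeBP lines rest on titles. Whether each line was 1 clone, and whether the samples of a group came from separate cultures, is not given in the sources used here.

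The files held the authors' own comparisons and no values per sample. A mean level below is the mean normalised count of a gene over all libraries of an experiment, and each experiment was normalised separately. A log2 fold change is the authors', shrunken towards 0 in the total RNA tables, and is followed by its standard error. A gene was called higher or lower where the authors' adjusted p was below 0.05. Counts at an unadjusted p below 0.05 take in all 40 HOX entries of a total RNA comparison, also those without an adjusted p. Dox raised TET1, whose reads include those of a TET1-derived transgene, by 2.34 ± 0.03 in HEK293 TET-CD-GFP, by 1.98 ± 0.03 in the mutant line, by 3.52 ± 0.03 in U2OS and by 1.97 to 2.52 in the MeBP lines (log2, the authors' deposited tables). The marker lists separated the lines only in part. INA, chosen for HEK293, had a mean level of 853 to 1084 in the HEK293 experiments and 1.1 in U2OS, and SOX2 had 490 to 654 against 87.9. LHX1 (124 to 301 against 199.6) and PAX2 (146 to 202 against 130) were at similar levels, and NEFM was low in both, at 2.0 to 10.9. AXL, chosen for U2OS, stood at 21073 there and at most at 20.1 in HEK293. RUNX2, COL1A1 and COL5A1 were also higher in U2OS, at 2074, 3538 and 9714 against at most 623, 256 and 2198. CAV1 was not higher in U2OS than in every HEK293 experiment (2278 to 3042 against 2665). TWIST1 went against the list, at 3.9 in U2OS and 406 to 600.5 in HEK293. Of the blood markers PTPRC reached 56.7 in U2OS, and no other exceeded 7.2. Markers moved with the treatments too. With Aza 2, 2, 3 and 2 of the 6 U2OS markers rose in HEK293 TET-CD-GFP, MeBP_TET_WT, G16 and G37, and 0, 0, 1 and 0 fell (the authors' deposited tables). Of the 5 HEK293 markers tested 2, 2, 1 and 2 rose and 0, 1, 0 and 0 fell in the same order. LHX1, of the HEK293 list, rose in each line, by 0.63 ± 0.15, 0.35 ± 0.12, 0.29 ± 0.11 and 0.42 ± 0.11. COL1A1, of the U2OS list, also rose in each, by 0.95 ± 0.19, 0.54 ± 0.14, 0.47 ± 0.12 and 0.71 ± 0.12. In U2OS Aza lowered 3 of the 6 U2OS markers, COL5A1, CAV1 and AXL, by 0.35 to 0.55, and none of the blood markers tested was called with Aza in any line. INA rose by 0.25 ± 0.09 with UVA and by 0.74 ± 0.08 with UVA on thio against thio in the authors' deposited tables. The part of other cells or of a change of cell state in the results was not tested.

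The promoters of 4 genes on which the results below turn are shown because each treatment acts on methylated CG dinucleotides or on DNA at large. HOXA9 and HOXD11 were higher with Aza in all 4 HEK293 lines, HOXA13 was lower in 3 of them, and HOXD12 was higher in the 3 MeBP lines. They are RefSeq windows of 300 bases, 250 before and 50 after the annotated start, in build GRCh38.p14, written 5′ to 3′ on the gene's strand. Capitals mark every CG.
HOXA9, chr7:27165488-27165787, minus strand: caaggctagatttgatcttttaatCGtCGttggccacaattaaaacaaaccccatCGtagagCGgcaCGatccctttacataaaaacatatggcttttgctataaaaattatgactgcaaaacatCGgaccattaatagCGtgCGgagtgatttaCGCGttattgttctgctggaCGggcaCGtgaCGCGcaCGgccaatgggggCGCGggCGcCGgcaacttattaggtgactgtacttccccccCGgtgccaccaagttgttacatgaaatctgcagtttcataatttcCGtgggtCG
HOXA13, chr7:27200042-27200341, minus strand: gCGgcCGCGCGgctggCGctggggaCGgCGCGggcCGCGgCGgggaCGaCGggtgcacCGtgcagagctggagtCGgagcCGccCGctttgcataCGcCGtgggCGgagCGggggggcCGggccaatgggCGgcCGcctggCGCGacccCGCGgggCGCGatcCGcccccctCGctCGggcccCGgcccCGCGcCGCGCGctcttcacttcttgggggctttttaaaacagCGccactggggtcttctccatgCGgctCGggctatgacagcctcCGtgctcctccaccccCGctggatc
HOXD11, chr2:176107030-176107329, plus strand: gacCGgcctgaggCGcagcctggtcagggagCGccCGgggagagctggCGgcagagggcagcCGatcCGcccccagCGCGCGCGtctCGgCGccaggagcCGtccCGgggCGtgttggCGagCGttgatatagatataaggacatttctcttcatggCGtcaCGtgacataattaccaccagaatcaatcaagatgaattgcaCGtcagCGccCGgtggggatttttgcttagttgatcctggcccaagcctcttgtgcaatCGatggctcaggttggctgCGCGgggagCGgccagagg
HOXD12, chr2:176099545-176099844, plus strand: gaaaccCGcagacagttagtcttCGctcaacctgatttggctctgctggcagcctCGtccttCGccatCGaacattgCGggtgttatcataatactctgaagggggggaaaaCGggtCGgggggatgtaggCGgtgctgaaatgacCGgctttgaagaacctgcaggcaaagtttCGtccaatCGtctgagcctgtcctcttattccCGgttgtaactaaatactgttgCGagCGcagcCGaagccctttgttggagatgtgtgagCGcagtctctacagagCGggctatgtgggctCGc

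The HOXA13 window held 44 CG dinucleotides, and 4.19% of all 34943 windows in the table held at least as many. The other windows were nearer the middle of the range, with 27 CG at HOXD11, 22 at HOXA9 and 19 at HOXD12, counts reached by 28.1%, 37.6% and 42.8% of all windows. A window was available for 20 of the 39 HOX genes, which had 26 windows in all with a median of 22.5 CG each (range 0 to 44), against a median of 14 over all windows. The motif searched was CG, which reads the same on both strands, and 96.0% of all windows held at least 1. These counts describe the reference sequence and not its methylation in these cells.

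Most HOX genes were expressed in both cell types. In the HEK293 Aza and UVA experiment the HOX entries had a median mean level of 899, against 656 over all genes, and only HOXB1, a hindbrain gene, stood below 10 there, at 0.13 (the authors' deposited tables). In U2OS the HOX median was 253 against 1000 over all genes, and HOXB1 was listed at 0. The 2 paralogues used at the ends of the limbs were both low in U2OS: HOXA13 had a mean level of 169 there and 3394 in the HEK293 Aza experiment, and HOXD13 had 12.8 and 1781 (the authors' deposited tables, normalised separately). Among all genes of its table HOXA13 stood at percentile 32.1 in U2OS and 81.9 in HEK293, and HOXD13 at 17.2 and 67.7. HOXB13, known from prostate and tail bud, had 972 and 492, which were percentiles 49.4 and 46.2, so its place among the genes was similar. HOXA2, HOXC12, HOXD1 and HOXD12 were also low in every experiment, with mean levels of 4.0 to 96.2. Reads of neighbouring HOX genes cannot always be told apart, because HOXA3 overlaps HOXA4 to HOXA6, HOXB3 overlaps HOXB4, HOXD3 overlaps HOXD4, and HOXC4, HOXC5 and HOXC6 share a start. Values for these genes, and for the 2 HOXC4 entries, are therefore uncertain.

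**Figure D1:**
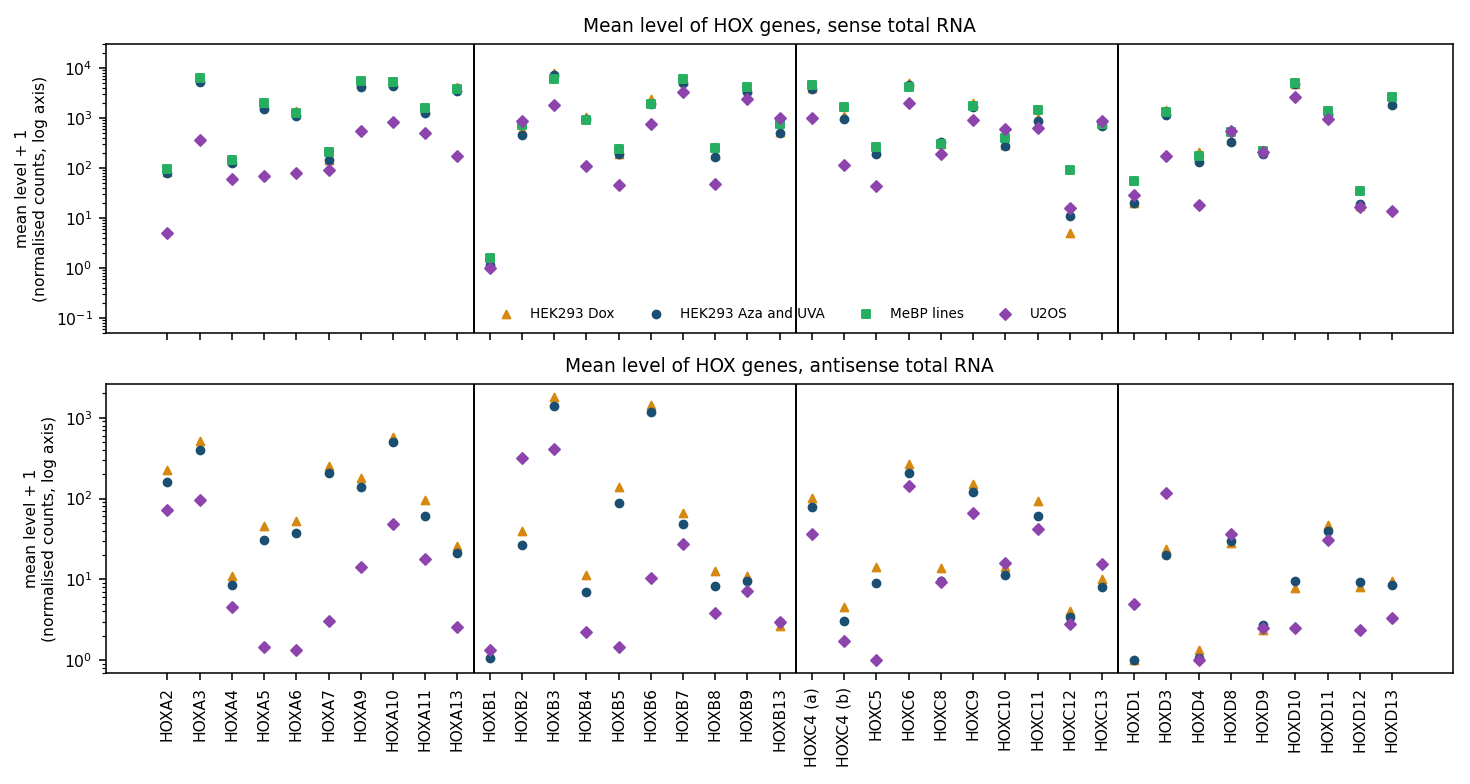
Mean level plus 1 of 39 HOX entries (normalised counts, log axis) in the sense and antisense total RNA tables, by cluster and number, with 1 point for each experiment (the MeBP lines in the sense panel only). In the sense panel HOXB1 lies at the bottom in every experiment, and HOXA2, HOXC12, HOXD1 and HOXD12 lie below 100. The marks (a) and (b) stand for the 2 HOXC4 entries.

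Turning on the TET domain moved no HOX gene past the threshold in HEK293. In the authors' deposited table for Dox in the TET-CD-GFP line, 0 of 39 HOX entries were called by DESeq2 with its adjusted p, against 0.88% of all genes. An unadjusted p below 0.05 was reached by 2 of all 40 entries, against 6.60% of all genes. The deposited changes ran from -0.03 to 0.06, and with the shrinkage undone the 95% interval lay within ±0.5 for 35 of the 39 entries. With the mutated domain 1 of 40 entries was called in the authors' deposited table, against 0.0275% of all genes. That gene was HOXA13, which patterns the hand and foot plate, and it fell by 0.19 ± 0.04 (adjusted p = 0.00034). In the line with the active domain HOXA13 changed by -0.01 ± 0.02, and the difference between the lines, 0.18 ± 0.05 after undoing the shrinkage, did not pass (adjusted p = 0.28). Of the 39 HOX entries 0 differed between the lines by that z test with Benjamini-Hochberg adjustment, against 0.146% of all genes. An unadjusted p below 0.05 was reached by 2 of them, against 4.35% of all genes.

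Dox also left most HOX genes below the threshold in the other lines. In U2OS the authors' deposited table called 0 of 38 entries by DESeq2, with 5 at an unadjusted p below 0.05, while it called 12.2% of all genes. The deposited tables called 0 of 39 in MeBP_TET_WT (1.3% of all genes), 0 of 27 in G16 (0.362%) and 1 of 40 in G37 (0.262%). In MeBP_TET_WT and G16, 5 and 3 of all 40 entries had an unadjusted p below 0.05, against 8.86% and 8.93% of all genes. The gene called in G37 was HOXC12, a 5′ gene of its cluster, which rose by 1.06 ± 0.20 (adjusted p = 2.3e-05). In the authors' deposited tables HOXC12 changed with Dox by 1.03 ± 0.50 in MeBP_TET_WT (adjusted p = 0.078) and by 0.65 ± 0.19 in G16, where its row holds no adjusted p and adjustment over every gene gave 0.024. In the HEK293 TET-CD-GFP line, where its mean level was 4.0, the change with the shrinkage undone was 1.64 ± 0.86 (unadjusted p = 0.055).

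Aza changed most of the HOX genes called by small amounts, and in each HEK293 line HOXC12 changed the most. In the authors' deposited table for HEK293 TET-CD-GFP, 5 of 39 entries were higher and 1 was lower, against 14.3% of all genes called. In MeBP_TET_WT 11 were higher and 1 lower (22.7% of all genes), in G16 9 and 5 (23.6%) and in G37 15 and 0 (24.7%), each of 39 entries in the authors' deposited tables. The share of HOX entries called was near or above that of all genes in each line, and called entries were mostly higher. The 4 Aza comparisons share no library.

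HOXA9, HOXC12 and HOXD11 were called higher in all 4 HEK293 lines, 3 of 39 HOX entries against 4.3% of all genes, and 0 of 39 were called lower in all 4, against 4.02%. HOXC12 rose by 3.07 ± 0.65 in HEK293 TET-CD-GFP (adjusted p = 6.4e-06), by 2.00 ± 0.41 in MeBP_TET_WT, by 1.73 ± 0.17 in G16 and by 2.10 ± 0.19 in G37, where its adjusted p was 5e-27 (the authors' deposited tables). Group levels worked out from the deposited mean and changes put it at 3.7 in untreated HEK293 cells and at 36.5 with Aza, while UVA, thio and both together gave 2.5, 2.5 and 5.1. Its low starting level makes the size of the change in HEK293 uncertain.

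HOXA9, a gene of blood stem cells and of the limb whose promoter is printed above, rose by 0.25 ± 0.06 in HEK293 TET-CD-GFP (adjusted p = 0.00021), 0.28 ± 0.05 in MeBP_TET_WT, 0.22 ± 0.05 in G16 and 0.36 ± 0.04 in G37 (the authors' deposited tables). Its estimated level in HEK293 was 3714 untreated and 4479 with Aza, and 4399, 4049 and 4212 with UVA, thio and both together. HOXD11, which shapes the forearm and kidney with HOXA11, rose by 0.17 ± 0.06, 0.12 ± 0.05, 0.25 ± 0.05 and 0.19 ± 0.05 in the same lines and order in the authors' deposited tables, with adjusted p = 0.011, 0.038, 1.6e-05 and 0.00084. Estimated levels of HOXD11 in HEK293 were 1112 untreated, 1271 with Aza, 1247 with UVA, 1200 with thio and 1117 with both. The changes of HOXA9 and HOXD11 with Aza were small and in the same direction in each line.

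HOXA13 went the opposite way from HOXA9, a gene of the same cluster. With Aza it fell by 0.23 ± 0.09 in HEK293 TET-CD-GFP (adjusted p = 0.013), by 0.27 ± 0.07 in MeBP_TET_WT (adjusted p = 0.00031) and by 0.37 ± 0.07 in G16 (adjusted p = 1.1e-06) in the authors' deposited tables. In G37 the deposited change was -0.13 ± 0.07 and missed the threshold (adjusted p = 0.066). Its estimated level in HEK293 was 3353 untreated and 2762 with Aza.

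**Figure D2:**
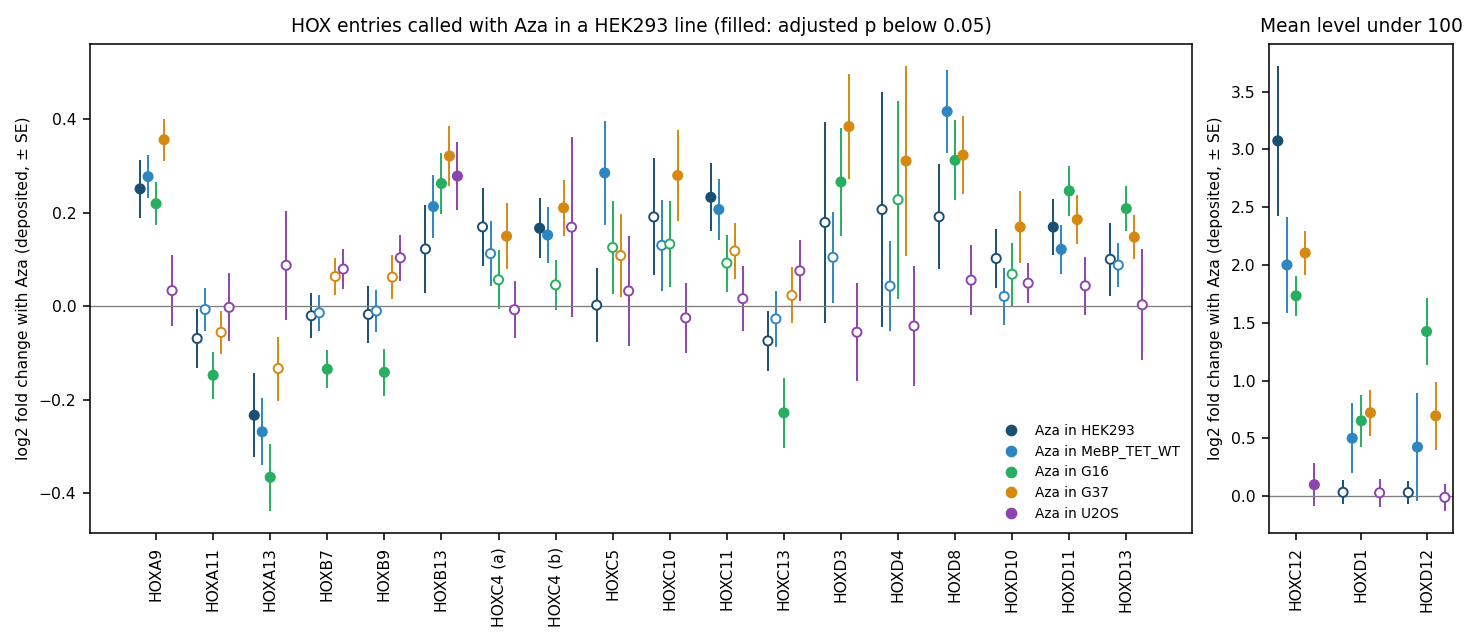
Deposited log2 fold change with Aza (± SE) in the 4 HEK293 lines and in U2OS for 21 HOX entries called in at least 1 of the HEK293 lines. The right panel holds HOXC12, HOXD1 and HOXD12, whose mean level is under 100; filled points have an adjusted p below 0.05. In the 4 HEK293 lines HOXC12 lies between 1.73 and 3.07, HOXA9 lies above 0, and HOXA13 lies below 0, open in G37.

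In G16 and G37 the D cluster had the most calls with Aza. In G37 8 of its 9 genes were higher, in G16 6 of 9, in MeBP_TET_WT 4 of 9 and in HEK293 TET-CD-GFP 1 of 9 in the authors' deposited tables, and none was lower in these lines. Over all genes 2036 of 16806, 1956 of 16806, 1708 of 16445 and 1190 of 16585 were higher in the same order. The C cluster had 4 of 10 entries higher in MeBP_TET_WT and 3 of 10 in HEK293 TET-CD-GFP. HOXD3 and HOXD4, both called in G37, overlap and are not separate observations. HOXD8, used along the trunk, rose by 0.42 ± 0.09 in MeBP_TET_WT, 0.31 ± 0.09 in G16 and 0.32 ± 0.08 in G37. HOXD12, a limb gene at the 5′ end whose promoter is printed above, rose by 1.42 ± 0.29 in G16 (adjusted p = 1.2e-06), 0.69 ± 0.29 in G37 and 0.42 ± 0.47 in MeBP_TET_WT, the last with an adjusted p of 0.036 because the deposited change is shrunken and its p is not (the authors' deposited tables). HOXD1, at the 3′ end, rose by 0.50 ± 0.30, 0.65 ± 0.22 and 0.72 ± 0.20 in MeBP_TET_WT, G16 and G37 in the authors' deposited tables. HOXD13, the last gene of the cluster, rose by 0.21 ± 0.05 in G16 and 0.15 ± 0.05 in G37, and the deposited change of 0.10 ± 0.08 in HEK293 TET-CD-GFP did not pass (adjusted p = 0.25).

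In the other clusters HOXB13 rose by 0.21 ± 0.07 in MeBP_TET_WT, 0.26 ± 0.07 in G16 and 0.32 ± 0.06 in G37 in the authors' deposited tables. HOXC11, a hindlimb gene, rose by 0.23 ± 0.07 in HEK293 TET-CD-GFP and 0.21 ± 0.07 in MeBP_TET_WT in the authors' deposited tables. One HOXC4 entry (ENSG00000273266) rose in HEK293 TET-CD-GFP, MeBP_TET_WT and G37, by 0.15 to 0.21. G16 was the only line with 5 lower genes in the authors' deposited tables: HOXA13, HOXC13 (-0.23 ± 0.08), HOXA11 (-0.15 ± 0.05), HOXB9 (-0.14 ± 0.05) and HOXB7 (-0.13 ± 0.04). HOXC13 is needed for hair and nails. By number, genes 9 to 13 had 4 higher and 1 lower of 16 in HEK293 TET-CD-GFP and 6 and 1 in MeBP_TET_WT. They had 6 and 4 in G16 and 8 and 0 in G37. Genes 5 to 8 had 0, 2, 1 and 1 higher of 11 in the same order, with 1 lower in G16. Genes 1 to 4 had 1, 3, 2 and 6 higher of 12 with none lower. Of all genes 14.3%, 22.7%, 23.6% and 24.7% were called in these lines, both directions together.

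No HOX gene passed the test of a difference between the MeBP lines. For G16 with Aza minus MeBP_TET_WT, 0 of 39 entries differed by the z test with Benjamini-Hochberg adjustment, against 0.0422% of all genes. An unadjusted p below 0.05 was reached by 4 entries, or 10.3%, against 5.68% of all genes. For G37 with Aza minus MeBP_TET_WT 0 differed, against 0.00603% of all genes, and 0 had an unadjusted p below 0.05, against 3.56%. The same pairs under Dox gave 0 and 0, against 0.636% and 0% of all genes. An unadjusted p below 0.05 was reached there by 3 and 2 entries, against 12.1% and 1.30% of all genes.

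**Figure D3:**
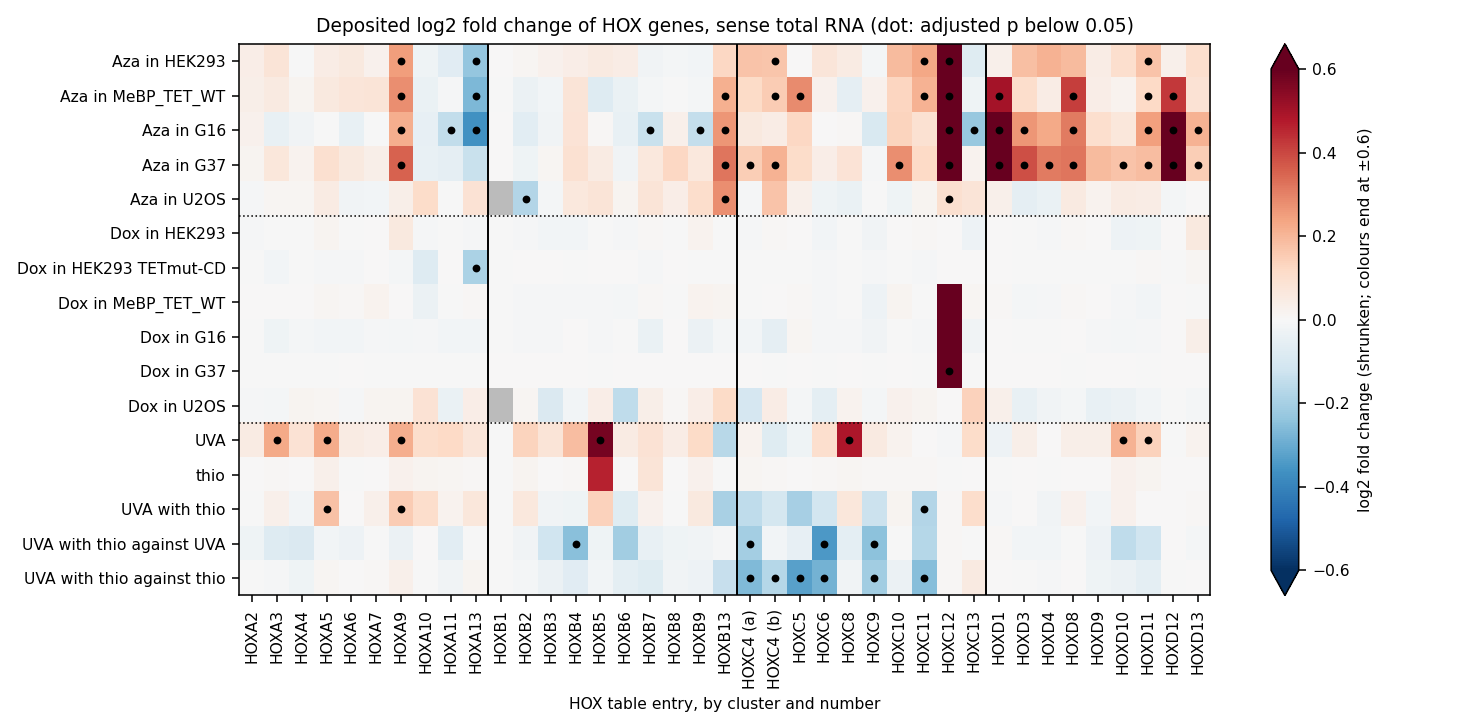
Deposited log2 fold changes of 39 HOX entries in the 16 sense total RNA comparisons, with clusters side by side and genes by number; a dot marks an adjusted p below 0.05, grey marks no value, and colours end at ±0.6. The rows for Aza in the MeBP lines hold most of the dots in the D cluster, the UVA row is mostly red, and the rows for UVA with thio against UVA and against thio are mostly blue.

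Aza and Dox were set against each other in HEK293 TET-CD-GFP, where their untreated libraries differ. With the shrinkage undone, HOXD11 changed by 0.19 ± 0.06 with Aza and by -0.09 ± 0.06 with Dox, a difference of 0.28 ± 0.08 (adjusted p = 0.021, or 0.092 from the shrunken values, where it no longer passed). It was 1 of 39 HOX entries to differ, against 4.27% of all genes. An unadjusted p below 0.05 was reached by 8 of 39, or 20.5%, against 15.9% of all genes. The next was HOXA13, with -0.26 ± 0.09 and an adjusted p of 0.098.

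In U2OS, at the lower Aza dose, fewer HOX genes were called although 23.7% of all genes were. The authors' deposited table gave 2 higher and 1 lower of 39. HOXB13 rose by 0.28 ± 0.07 (adjusted p = 0.00025), and HOXB2, a hindbrain gene, fell by 0.17 ± 0.08 (adjusted p = 0.033). HOXC12 was called (adjusted p = 0.015) with a deposited change of 0.10 ± 0.19, which became 1.71 ± 0.57 once the shrinkage was undone. Its estimated levels were 8.1 untreated, 26.5 with Aza and 9.2 with Dox. HOXA9 and HOXD11 did not pass there. In the z test of U2OS minus HEK293 under Aza, where doses differ, 0 of 39 HOX entries differed, against 12.1% of all genes. An unadjusted p below 0.05 was reached by 8 of 39, or 20.5%, against 23.5% of all genes. HOXA13 came nearest, with a change of 0.20 ± 0.15 in U2OS and -0.28 ± 0.09 in HEK293 (difference 0.48 ± 0.18, adjusted p = 0.052). Under Dox, at the same dose in both, 0 of 39 differed, against 2.14% of all genes. An unadjusted p below 0.05 was reached by 11.4% of all genes and by 1 HOX entry. That was HOXC13, with a difference of 0.31 ± 0.10 (adjusted p = 0.059).

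UVA alone raised 7 HOX entries in HEK293, and UVA on thio-treated cells lowered 6 entries of the C cluster. In the authors' deposited table for UVA against untreated, 7 of 36 entries were higher and 0 lower, against 12.7% of all genes called, and 33 of 36 changes were positive against 50.7% of all genes. Thio alone, set against the same untreated libraries, gave 25 of 27 positive against 51.3% of all genes, so both comparisons leaned upwards. The same authors' deposited table gave a rise of 0.57 ± 0.20 for HOXB5, a trunk gene also used in gut nerve development (adjusted p = 0.0047), and of 0.48 ± 0.16 for HOXC8, a thoracic gene (adjusted p = 0.0046). HOXA3, HOXA5, HOXA9, HOXD10 and HOXD11 rose by 0.14 to 0.23 in that table. Estimated levels of HOXB5 were 141 untreated and 225 with UVA, but 213 with thio alone and 189 with both, and the change with thio alone, 0.46 in the authors' deposited table, carries no adjusted p. Those of HOXC8 were 273, 406, 364 and 326 in the same order.

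Thio alone called 0 of 27 HOX entries by DESeq2 in the authors' deposited table, against 0.0551% of all genes. An unadjusted p below 0.05 was reached by 8 of all 40 entries, against 5.46% of all genes. UVA with thio against thio called 0 higher and 6 lower of 38 in the authors' deposited table, against 3.69% of all genes, and those 6 entries were all in the C cluster. HOXC11 fell by 0.25 ± 0.08 (adjusted p = 0.0039), HOXC6, used in the thorax and forelimb, by 0.28 ± 0.11 (adjusted p = 0.020), HOXC9 by 0.21 ± 0.10, HOXC5 by 0.33 ± 0.16 and the 2 HOXC4 entries by 0.27 ± 0.09 and 0.17 ± 0.07 in the authors' deposited table. Since HOXC4, HOXC5 and HOXC6 share a start, these are not separate observations.

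UVA with thio against UVA called 4 of 36 entries, all lower, in the authors' deposited table (3.03% of all genes), and 35 of 36 changes were negative against 51.1% of all genes. They were HOXC6 (-0.35 ± 0.11), HOXC9 (-0.24 ± 0.10), HOXB4 (-0.25 ± 0.12) and HOXC4 (-0.21 ± 0.09). Against untreated cells UVA with thio called 2 higher and 1 lower of 38 in the authors' deposited table (9.5% of all genes): HOXA5 and HOXA9 rose by 0.17 ± 0.08 and 0.15 ± 0.06, and HOXC11 fell by 0.18 ± 0.08. These comparisons share libraries with one another and with the HEK293 Aza comparison, so their values stand side by side and are not separate evidence.

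The UVA effect with thio and the one without it use different libraries, so their difference could be tested. HOXC6 changed by 0.19 ± 0.10 with UVA alone and by -0.35 ± 0.10 with UVA on thio, a difference of -0.54 ± 0.14 (adjusted p = 0.030, or 0.40 from the shrunken values, where it no longer passed), and was 1 of 39 HOX entries to differ, against 0.754% of all genes. The difference was negative for 37 of 39 HOX entries and for 50.5% of all genes, with a median of -0.23 over the HOX entries and -0.00 over all genes. An unadjusted p below 0.05 was reached by 20 of 39 HOX entries, or 51.3%, and by 13.3% of all genes. The untreated libraries enter this difference only through the UVA effect without thio. Thio against those libraries was positive for 25 of 27 entries, and their part in the lean was not tested. Entries that overlap or share a start are not separate observations. HOXC8 (-0.73 ± 0.21), HOXD10 (-0.32 ± 0.09) and HOXB5 (-0.85 ± 0.25) had adjusted p of 0.060, 0.063 and 0.065.

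**Figure D4:**
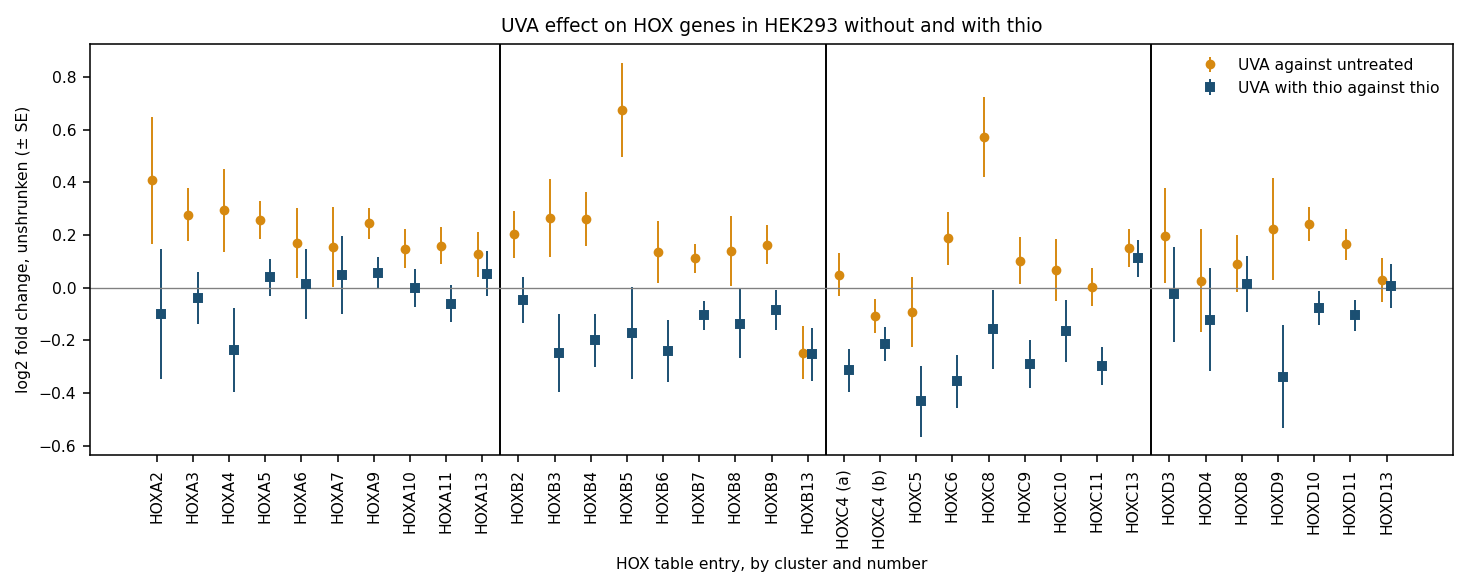
UVA effect on HOX genes in HEK293 (log2 fold change with the shrinkage undone, ± SE) against untreated cells and, on thio-treated cells, against thio, for 35 entries whose difference has a standard error below 0.4. Points for UVA alone lie mostly above 0 and points for UVA with thio mostly below, with the gap largest for HOXB5 and HOXC8. HOXC6 is the entry whose difference passed. Only the points for UVA alone use the untreated libraries.

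Antisense RNA over the HOX genes had a lower median level than sense RNA and was often not testable. Its median mean level was 19.6 in the HEK293 Aza and UVA experiment, against 6.97 over all genes. In U2OS it was 5.1 against 9.20. The highest level was over HOXB3, at 1401 in the HEK293 Aza and UVA experiment (the authors' deposited tables). Dox in HEK293 called 0 of 15 HOX entries by DESeq2 with 3 at an unadjusted p below 0.05 (0.303% of all genes called), the mutated domain 0 of 39 with 0 (0.00568%), Dox in U2OS 0 of 11 with 0 (2.17%), Aza in U2OS 0 of 9 with 0 (6.32%) and Aza in HEK293 0 of 15 with 2 (4.89%) in the authors' deposited tables. Thio called 0 of 39 with 0 (0% of all genes), and UVA with thio against thio called 0 of 19 with 3 (0.276%). The counts at an unadjusted p take in all 40 antisense entries, tested or not.

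Antisense calls were limited to the A cluster. In the comparisons that had calls, the 15 entries tested were 6 of the A cluster, 4 each of B and C and 1 of D. UVA raised antisense RNA over HOXA9 by 0.47 ± 0.18 (adjusted p = 0.045) and over HOXA10, its neighbour, by 0.34 ± 0.13 (adjusted p = 0.050), 2 of 15 entries against 0.924% of all genes in the authors' deposited table. UVA with thio lowered it over HOXA2, a hindbrain and face gene, by 0.48 ± 0.18 against untreated cells (adjusted p = 0.035), 1 of 15 against 0.842%. Against UVA it was lower over HOXA9 by 0.48 ± 0.18 (adjusted p = 0.021), 1 of 15 against 2.55% (the authors' deposited table). In that comparison 10 of all 40 entries, tested or not, had an unadjusted p below 0.05, against 5.59% of all genes. Estimated antisense levels over HOXA9 were 127 untreated, 190 with UVA, 115 with thio and 127 with both, so UVA alone stood apart. Each of these 4 calls was lost when p-values were adjusted over every gene with a p-value.

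Nascent RNA was listed for HOXD13 alone among the HOX genes, and its gene body carried less with Aza. In the authors' deposited elongation table its site lay at chr2:176958161-176959650 on the plus strand (hg19) and had estimated levels of 391 in untreated cells, 239 with Aza and 303 with Dox. The change was -0.71 ± 0.13 with Aza, so it was 1 of 1 HOX sites called against 15.1% of all sites, and -0.37 ± 0.12 with Dox (adjusted p = 0.047), against 5.84%. Aza against Dox gave -0.34 ± 0.13 (adjusted p = 0.13), so 0 of 1 sites were called against 3.32% in the authors' deposited table. Both comparisons with untreated cells share their untreated libraries.

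Of the 3 HOXD13 initiation sites, the one at chr2:176957420-176957630 changed by 0.04 ± 0.11 with Aza and by 0.14 ± 0.11 with Dox. Those at chr2:176957770-176957880 and chr2:176958000-176958110 changed by -0.18 ± 0.21 and -0.36 ± 0.23 with Aza. With Dox they changed by -0.11 ± 0.22 and -0.13 ± 0.23. None of these changes passed in the authors' deposited table. Over the 16 HOXD13 sites of the 8 other tables that list it, 0 were called with Aza and 0 with Dox by the authors' adjusted p, 3 and 3 had an unadjusted p below 0.05, and 5.28% and 4.64% of all sites in those tables were called. Sites of 1 gene are not replicates. In the same line total RNA of HOXD13 changed by 0.10 ± 0.08 with Aza and by 0.06 ± 0.05 with Dox, neither of which passed (the authors' deposited tables).

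**Figure D5:**
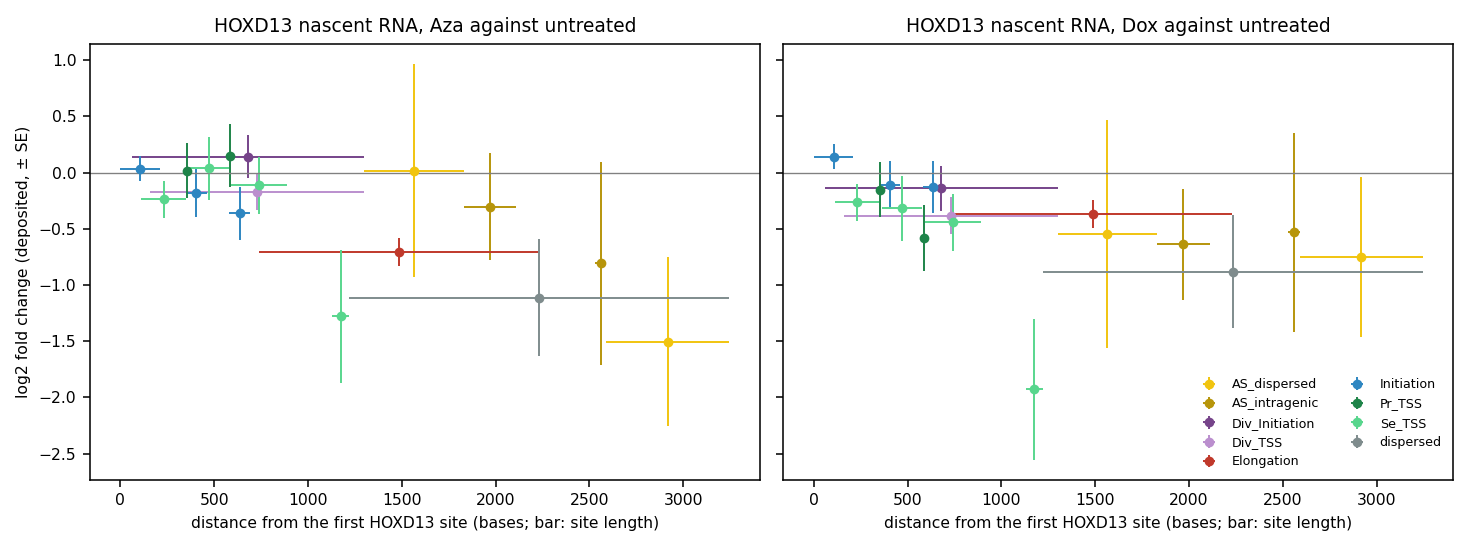
Deposited log2 fold change (± SE) at each HOXD13 site of the nascent RNA tables against the distance from the first site in bases, for Aza and for Dox. Horizontal bars span each site. The elongation site lies at -0.71 with Aza and -0.37 with Dox, and the sites called number 1 in each panel.

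Partners and regulators of HOX genes were looked up from lists chosen with earlier results known. Over all genes, Aza called 14.3%, 22.7%, 23.6% and 24.7% in HEK293 TET-CD-GFP, MeBP_TET_WT, G16 and G37 and 23.7% in U2OS, and UVA called 12.7%, in both directions together. The counts of list members below stand beside these shares, and nothing particular to a list is read from them. Of the 9 TALE cofactors tested, Aza raised 2 in HEK293 TET-CD-GFP, 1 in MeBP_TET_WT, 3 in G16 and 2 in G37 and lowered none there, and in U2OS it raised 0 and lowered 2 (the authors' deposited tables). MEIS3 rose by 0.47 ± 0.14, 0.40 ± 0.11, 0.38 ± 0.11 and 0.46 ± 0.10 in the 4 HEK293 lines. UVA raised 3 of 9, among them MEIS2 (0.28 ± 0.11) and PBX3 (0.33 ± 0.20), in the authors' deposited table, and UVA with thio against UVA lowered 3 of 9, MEIS2 among them, against 3.03% of all genes.

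Of 13 or 14 CDX and retinoic acid genes tested, Aza raised 2, 5, 4 and 4 in the 4 HEK293 lines in the order above and lowered 0, 0, 1 and 1, and in U2OS it raised 2 and lowered 3 (the authors' deposited tables). ALDH1A2, which makes retinoic acid, rose in all 5, by 0.19 ± 0.05, 0.26 ± 0.04, 0.19 ± 0.04, 0.31 ± 0.04 and 0.56 ± 0.08. RARB, a retinoic acid receptor, fell by 0.57 ± 0.10 with UVA on thio against thio and by 0.61 ± 0.10 against untreated cells in the authors' deposited tables.

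Among 18 PRC1 genes, which with PRC2 form the Polycomb complexes, Aza raised 2, 1, 1 and 2 and lowered 3, 5, 4 and 3 in the 4 HEK293 lines, and raised 0 and lowered 3 in U2OS (the authors' deposited tables). PCGF3 fell in all 5, by 0.19 to 0.32. Among 11 PRC2 genes Aza raised 1, 1, 1 and 2 and lowered 0, 2, 1 and 1, with 0 and 2 in U2OS in the authors' deposited tables. Of 13 trithorax and MLL genes Aza raised 0, 0, 2 and 1 and lowered 0, 1, 1 and 1, and in U2OS raised 0 and lowered 6, DOT1L (-0.38 ± 0.05) among them. Dox in HEK293 TET-CD-GFP called 0 genes of every one of these lists in the authors' deposited table. Of 15 genes flanking the clusters Aza raised 2, 3, 3 and 2 and lowered 1, 1, 0 and 1 in the HEK293 lines, and raised 3 and lowered 1 in U2OS (the authors' deposited tables). CBX5, which lies beside the C cluster and encodes a heterochromatin protein, rose by 0.16 to 0.32 in the HEK293 lines and fell by 0.22 ± 0.03 in U2OS.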

How the data were processed

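Total RNA was prepared with a stranded kit after ribosomal RNA removal, per the labels' protocols. The submitters' processing notes name Trim Galore 0.4.3, STAR 2.4.2, bedtools 2.20.1, deepTools 3.0.2, R 3.5.1 and DESeq2 1.22.1 and the builds hg19 and galGal5, with no role given. The 37 files used hold comparisons the authors made: 26 of total RNA, 16 sense and 10 antisense, and 11 of nascent RNA. Which of PRO-cap and PRO-seq gave each nascent table is not given in the sources used here. Each deposited table gives the mean normalised signal of a gene or site over the libraries of its experiment, a log2 fold change with its standard error, a test statistic (a score without fixed range in the deposited tables), a p-value and an adjusted p-value. The authors' column names are those of DESeq2. The deposited adjusted p-value is missing for genes of low mean level, and such entries were counted as not tested. Depth per sample is unknown, since the tables hold no counts per sample. Columns of outlier marks (12) and repeats of the mean level were not used.

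A gene or site was called at a deposited adjusted p below 0.05, so each p-value comes from the authors' test across all genes of a table. The total RNA changes are shrunken, and the unshrunken change was recovered as the normal quantile of the deposited p-value times a standard error. That standard error was fitted under a Cauchy prior with its scale taken from the genes whose mean level reached 50. For Dox in G37 the scale could not be fitted, and the geometric mean of the standard errors in the other 5 MeBP comparisons was used. Group levels were estimated from the mean level and these changes. Changes in 2 comparisons with no library in common were set against each other by a two-sided z test, adjusted by the Benjamini-Hochberg method over all genes, for 9 pairs, and this was tested on simulated data. As named genes, HOX genes called in a comparison were given with their values, at most 8 a direction in order of adjusted p. The HOX genes, the other lists and the tests were chosen with earlier results of these data known. Work was done in Python with pandas, numpy, scipy and matplotlib. Alternatives were a threshold of 0.01, adjustment over every gene with a p-value, centring on the median change of all genes, and, for the differences, shrunken values and a minimum mean level of 10 in both tables. A list of HOX non-coding genes had no entry in these tables. Values of 1 HOX gene and 1 cofactor gene are not reported here, though both entered the counts.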

Additional observations from a re-analysis of the deposited data

Results flagged for a closer look

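The response of HOXD11 to Aza differed from its response to Dox in HEK293 TET-CD-GFP cells by 0.28 ± 0.08 (log2, Aza minus Dox, shrinkage undone, adjusted p = 0.021), with a change of 0.19 ± 0.06 in 1 and -0.09 ± 0.06 in the other, estimated from the authors' deposited tables. It is listed because the difference itself passed its test, as 1 of 39 HOX entries against 4.27% of all genes. The change with Dox did not pass on its own, and from the shrunken values the difference no longer passed (adjusted p = 0.092).

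The response of HOXC6 to UVA was lower with thio than without it by -0.54 ± 0.14 (log2, shrinkage undone, adjusted p = 0.030), from a change of 0.19 ± 0.10 without thio and -0.35 ± 0.10 with it, estimated from the authors' deposited tables. It is listed because the difference passed its test, as 1 of 39 HOX entries against 0.754% of all genes. The change with UVA alone did not pass on its own, and from the shrunken values the difference no longer passed (adjusted p = 0.40). HOXC6 shares a start with HOXC4 and HOXC5, whose differences did not pass.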

How the results depend on the processing

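No paired analysis was possible because the tables hold no values per sample, and for the same reason no library could be left out. Of 92 counts recomputed under an alternative, 72 stayed within 1.5 times of the value reported and 20 moved. Of 234 values of single genes 185 kept their direction and side of the threshold and 49 no longer passed, and none turned its direction. The 0.01 threshold and the adjustment over every gene leave the change itself as it is, so direction was fixed under them. A count of 0 could not move at the 0.01 threshold either. At an adjusted p below 0.01 the HOX calls became 1 for Aza in U2OS, 3 for Aza in HEK293, 7 for Aza in MeBP_TET_WT, 2 for UVA with thio against thio and 0 for UVA with thio against UVA, for UVA with thio against untreated cells, for each of the 3 antisense comparisons that had calls and for Dox at the HOXD13 elongation site. With adjustment over every gene, UVA with thio against UVA had 2 calls, Dox in G16 had 1 (HOXC12), and the 3 antisense comparisons had 0. Centring moved the median of all genes by at most 0.01; it ended the call of HOXC4 with UVA with thio against UVA and with Aza in G37 and added HOXA13 with Aza in G37. Differences taken from the shrunken values gave 1 call between the active and mutated domain (HOXA13), 1 between U2OS and HEK293 with Aza (HOXC12) and 0 for the UVA effect with and without thio, where HOXC6 had an adjusted p of 0.40; between Aza and Dox the count stayed at 1 but named HOXC12, with HOXD11 at 0.092. A minimum mean level of 10 gave 1 call between U2OS and HEK293 with Aza (HOXA13) and 1 with Dox (HOXC13), by its construction from fewer genes tested. The cause of the other shifts was not tested. Depth per library is unknown, and with 3 libraries a group HOXC12, HOXD1 and HOXD12 have wide errors.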

Other observations

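EVX2, a homeobox gene beside HOXD13, was not one of the HOX genes but appeared in the nascent tables of HEK293 TET-CD-GFP cells. Its divergent start-site signal rose with Dox by 0.48 ± 0.09 (adjusted p = 7.8e-06) and its divergent initiation signal by 0.41 ± 0.11 (adjusted p = 0.020) in the authors' deposited tables. Both signals come from overlapping stretches of the same strand, so they are not separate observations. EVX2 elongation changed with Dox by -0.03 ± 0.27 and its initiation sites by 0.18 ± 0.20 and 0.18 ± 0.23, and none of these was called. SKAP2, which lies beside the A cluster and encodes an adaptor protein of immune cells, rose by 1.44 ± 0.34 with Aza in U2OS (adjusted p = 1.3e-05) in the authors' deposited table, and was not called in the HEK293 lines.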
